A study of Mus musculus with 4 samples.

Results

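Heat shock proteins and chaperones were followed over 4 control arrays of area CA1 of the hippocampus. The genes were taken by name: every probe set with exactly 1 gene symbol on the platform that begins with Hsp, Dnaj or Cct and a digit, or is Tcp1, Hsf1, Hsf2, Bag1 or Stip1, without the proteoglycan gene Hspg2. This gave 82 of 12422 probe sets and 59 of 8251 named genes, each gene being read on its brightest probe set. The samples were total RNA of young male C57BL/6J mice that were only handled. They were collected at 1, 2, 4 and 6 h, counted from the final shock of experimental mice that are not analysed here, and each hour has 1 sample on 1 array. The number of mice behind a sample, the hour of day and the meaning of the ordinal in the sample titles are not given in the sources used here. No difference between 2 hours therefore has a replicate check.

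Chaperones bind unfolded or newly made proteins and help them reach or regain their fold. HSP70 proteins do so in cycles driven by ATP, in which J proteins (the Dnaj family) bring the substrate and stimulate the ATPase, and HSP90 takes over late folding steps of kinases and steroid receptors. Some cytosolic chaperones are made in larger amounts after heat or protein damage, when heat shock factor binds heat shock elements in their promoters. Others are made at all times. The endoplasmic reticulum and the mitochondrion have their own HSP70, HSP90 or HSP60 members, and those of the endoplasmic reticulum are induced by the unfolded protein response through ER stress elements.

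Both kinds of element were searched in promoter sequence. In the windows of RefSeq on GRCm38.p6, from 250 bases before to 50 after a gene's start, 51 of the 59 genes were matched through gene IDs, with 65 windows in all. The minimal heat shock element was searched as GAANNTTC or TTCNNGAA, each of which reads the same on both strands. It occurred in 16 of the 65 chaperone windows (24.6%), from 14 of the 51 genes, and in 15.1% of all 32851 windows. The longer form, GAA, TTC and GAA with any 2 letters between neighbours, was searched on both strands and contains both shorter forms. It occurred in 6 chaperone windows (9.23%), from 4 genes, and in 0.603% of all windows. Windows can overlap, so 1 element can be counted in several windows, as in those of Hsph1 and in those of Hspd1 and Hspe1. An ER stress element, CCAAT and CCACG with any 9 letters between them on either strand, occurred in 3 chaperone windows (4.62%) and in 0.119% of all. A match is a string of letters and no evidence of binding.

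The heat shock element was found in 4 of the 5 matched inducible cytosolic genes (Hspa1a, Hspa1b, Hspb1 and Hsph1) and in 2 of 5 mitochondrial genes. It was found in 3 of 8 TRiC genes (Cct2, Cct5 and Cct6a), 3 of 14 other J protein genes and 1 of 2 small heat shock protein genes (Hspb8). In the endoplasmic reticulum it was found in 1 of 7 genes, and in the constitutive cytosolic class in 0 of 5 matched genes. Genes without a matched window, and so not searched, were Cct4, Dnajc11, Dnajc2, Dnajc5, Hsp90aa1, Hspa8, Hspa9 and Hspb2. They include Hspa8 of the constitutive class and Hsp90aa1 of the inducible class. The longer form was found in Hsph1, Dnajb6, Hspd1 and Hspe1, so in 1 of the 5 inducible genes, and differences between classes were not tested. The ER stress element was found in 3 of the 7 genes of the endoplasmic reticulum (Hspa5, Hsp90b1 and Dnajc3) and in 0 genes of the other classes. The stretches that hold these letters are given 5′ to 3′ on the gene's strand, with the matched element in capitals, because they hold the elements through which both stress pathways are known to act. Hspa1a lies at chr17:34972233-34972280 on the minus strand and Hspa1b at chr17:34959315-34959362 on the minus strand. Hsph1 is shown at chr5:149636342-149636389, minus strand, a stretch with a short match (its longer form lies outside it, past the start), and Hspb1 at chr5:135887782-135887849, plus strand. The stretch of Hspe1, at chr1:55088039-55088096 on the plus strand, is also the promoter of Hspd1, which starts on the opposite strand: a window of Hspd1 shares 285 bases with that of Hspe1. Hspa5 is at chr2:34772005-34772063, plus strand, Hsp90b1 at chr10:86705513-86705676, minus strand, and Dnajc3 at chr14:118937807-118937865, plus strand.
Hspa1a: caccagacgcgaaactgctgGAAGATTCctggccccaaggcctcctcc
Hspa1b: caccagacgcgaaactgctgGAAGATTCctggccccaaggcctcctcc
Hsph1: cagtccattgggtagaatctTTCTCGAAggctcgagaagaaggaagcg
Hspb1: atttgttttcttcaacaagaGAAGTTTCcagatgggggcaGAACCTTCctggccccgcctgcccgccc
Hspe1 and Hspd1: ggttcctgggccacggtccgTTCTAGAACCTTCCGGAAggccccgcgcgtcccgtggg
Hspa5: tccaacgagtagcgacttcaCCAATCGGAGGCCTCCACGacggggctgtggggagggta
Hsp90b1: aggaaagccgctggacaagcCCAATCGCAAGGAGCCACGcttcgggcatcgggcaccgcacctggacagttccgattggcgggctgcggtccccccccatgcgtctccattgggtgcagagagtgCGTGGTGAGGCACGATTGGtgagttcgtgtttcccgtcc
Dnajc3: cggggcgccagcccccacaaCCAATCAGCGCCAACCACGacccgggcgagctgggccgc

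The stretches of Hspa1a and Hspa1b are identical, and 247 of the 250 bases before their starts (98.8%) are the same. In Hspe1 and Hspd1, 3 overlapping matches form 1 continuous run. Hsp90b1 holds the ER stress element on both strands, once in each direction.

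A signal is a probe set's intensity as scaled by the authors, and a difference is log2 of the signal at a later hour minus log2 at 1 h. Signals of different probe sets are not comparable with each other, since probe sets bind with different strength. Of the 59 genes, 51 were bright enough to test, with a mean log2 signal at or above that of a signal of 116.4. None of the 51 had a signal under 73.6, which is 2 times the floor of 36.8, on any array. The other 8 genes were too dim: Hspb1, Hspa1l, Hspb11, Hsf2, Dnajb3, Dnajb5, Dnajb8 and Dnajc17. Markers of neurons and of CA1 were bright: Snap25 of nerve terminals had 18884 ± 858 and the CA1 pyramidal marker Wfs1 had 2290.5 ± 292 (SD over the 4 arrays, n = 4). Rgs14, taken as a marker of CA3 and CA2, was bright too, at 5434 ± 691. Prox1 of dentate granule cells was under the floor on the 2, 4 and 6 h arrays. The share of each subfield in the tissue was not tested. In tissue RNA, fewer cells of a type and less RNA per cell cannot be told apart. The 2 h array stood apart in the control transcript Gapdh, with a 3′ over 5′ signal ratio of 1.08, against 4.10, 3.62 and 3.95 at 1, 4 and 6 h. For beta-actin the ratio was also lowest at 2 h but nearer to the others, at 1.72 against 2.27, 2.59 and 2.93. The part of these differences in the 2 h values below was not tested.

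Taken without regard to brightness, the spread of chaperone signals over the 4 arrays lay close to that of all tested probe sets. Shares at like brightness are given further below. The ratio of the highest to the lowest signal was at most 1.5 in 21 of 51 genes (41.2%), against 46.4% of all 7237 tested probe sets. It was at least 2 in 11 genes (21.6%), against 22.6% of all, and its median was 1.56 for chaperones and 1.54 for all tested probe sets. The 11 genes were Hspa1a, Hspa1b, Dnajb1, Hspa2, Hspa4l, Stip1, Dnajc5, Dnajb4, Dnajc1, Dnajc4 and Dnajc11. Without the 2 h array 6 of 51 genes ranged over at least 2-fold (11.8%), against 12.7% of all, so the shares again lay close together. Of the 51 genes, 14 were above 1 h at all 3 later hours, against 25.1% of all tested probe sets, and 11 were below it at all 3, against 23.1%.

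**Figure D1:**
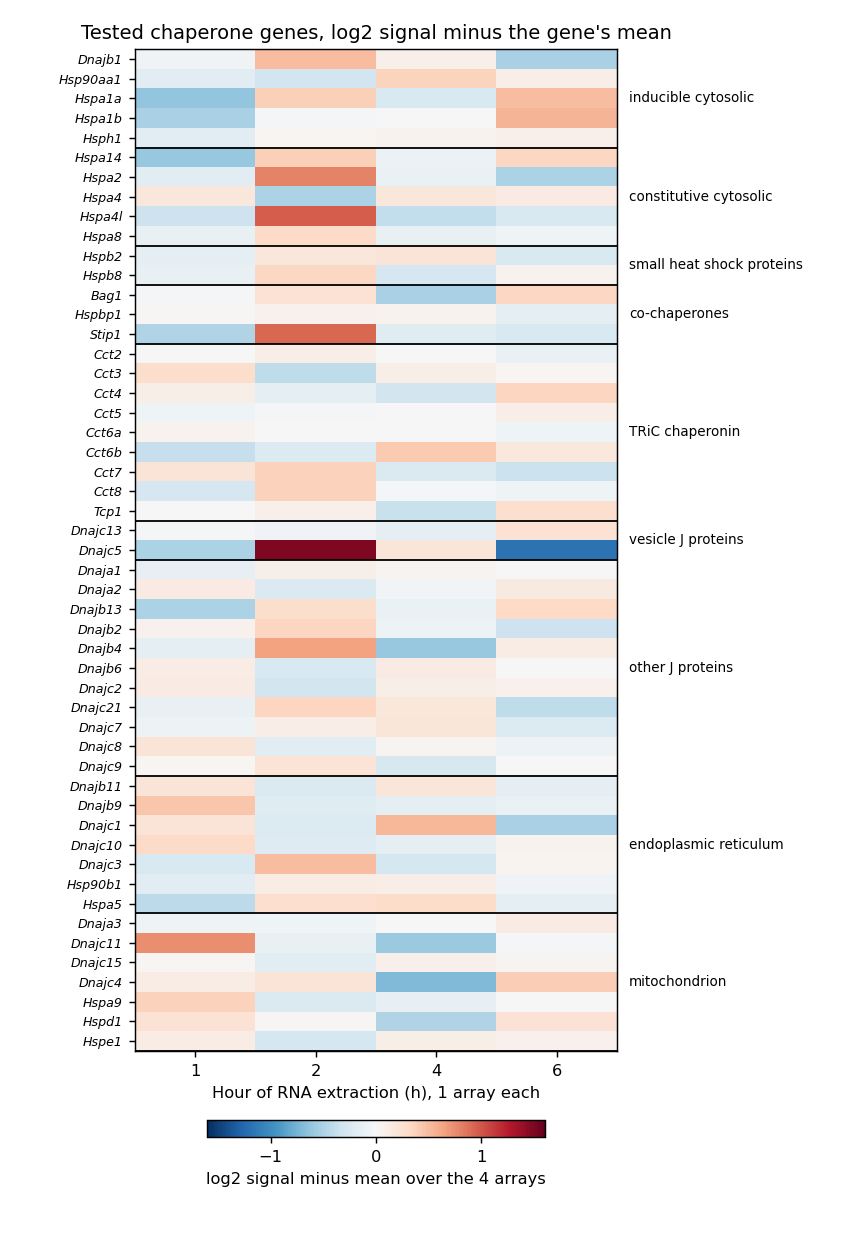
Each row is 1 of the 51 tested chaperone genes and each column 1 array, in hours (h), with rows grouped by class. Colour gives the log2 signal minus the gene's mean over the 4 arrays. The darkest cells are the 2 h and 6 h arrays of Dnajc5, with signals of 750 and 117, and most other rows are pale.

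Set against 1 h, 4 of 51 genes were at least 2-fold higher at 2 h (7.84%), against 6.92% of all tested probe sets, and 0 were at least 2-fold lower, against 3.29%. These were Dnajc5, Stip1, Hspa4l and Hspa1a, and in both directions together 10.2% of all probe sets passed 2-fold at 2 h. At 4 h 0 genes were at least 2-fold higher (3.69% of all) and 1 was at least 2-fold lower (2.51% of all), the mitochondrial J protein gene Dnajc11, with 6.2% of all past 2-fold in either direction. At 6 h 2 were at least 2-fold higher (3.74% of all), Hspa1a and Hspa1b, and 0 were at least 2-fold lower (2.79% of all), with 6.54% of all past 2-fold in either direction. The median log2 difference over the 51 genes was 0.15 at 2 h, -0.0019 at 4 h and 0.0055 at 6 h, against -0.01, 0.0089 and 0.02 over all 5546 tested genes. At 2 h 32 of 51 genes (62.7%) lay above 1 h, against 49.7% of all tested probe sets, 28 did after quantile normalization, against 45.7% of all, and 26 after centring each array on its median, against 40% of all. Centring lowered all genes together, to medians of -0.14, -0.10 and -0.12 log2 at 2, 4 and 6 h, so counts under it are to be read against these shifts. At 2 h the median of the 51 genes was then 0.02. The counts above 1 h were 25 of 51 at 4 h (51.3% of all) and 27 of 51 at 6 h (52.5% of all).

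The highest of the 4 signals was that of the 1 h array in 11 of 51 genes, of 2 h in 19, of 4 h in 8 and of 6 h in 13, while over all tested probe sets the shares were 23.1%, 29.2%, 23.2% and 24.5%. The lowest was at 1 h in 14 genes, at 2 h in 13, at 4 h in 12 and at 6 h in 12, against 25.1%, 32%, 22% and 20.9% of all. Chaperones thus had their highest signal at 2 h in 37.3% of genes and their lowest there in 25.5%. By Dixon's ratio 5 of 51 genes had 1 array apart from the other 3, against 6.44% of all: Hspa8, Hspa4, Hspa4l and Hspe1 at 2 h and Dnajb9 at 1 h.

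Limma fitted a straight line through the 4 log2 signals of each probe set against the hour. With its p adjusted to a threshold of 0.05 it called 0 of 51 chaperone genes and 0 of 7237 probe sets (0%). Unadjusted values under 0.05 were reached by 2 chaperone genes, Hspa1b upward and Cct7 downward, and by 2.71% of all probe sets. Among the 51 genes 24 sloped up and 27 down. The slopes lay between -0.26 and 0.18 log2 per hour, and their smallest adjusted p by limma was 0.9996. A straight line over hours cannot judge a value that is high or low at 2 h alone.

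Of the 5 tested genes of the inducible cytosolic class 4 were above 1 h at 2 h, 5 at 4 h and 4 at 6 h, and these counts were the same after quantile normalization and after median centring. Their median log2 differences were 0.50, 0.38 and 0.28. The constitutive cytosolic class had 4, 3 and 3 of 5 genes above 1 h, with medians of 0.97, 0.0016 and 0.06, so its median stood high at 2 h. The class of the endoplasmic reticulum had 3 of 7 genes above 1 h at each hour, and the mitochondrial class had 2, 2 and 4 of 7. After quantile normalization the constitutive class had 4, 3 and 4, and the mitochondrial class 1, 2 and 2. After median centring they had 4, 1 and 1, and 0, 0 and 2. The endoplasmic reticulum had 3, 3 and 3, and then 3, 3 and 2. Of all tested probe sets 49.7%, 51.3% and 52.5% were above 1 h at 2, 4 and 6 h. The shares were 45.7%, 48.9% and 49.8% after quantile normalization, and 40%, 40.6% and 37.3% after median centring. With 1 array an hour, the difference between classes was not tested.

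**Figure D2:**
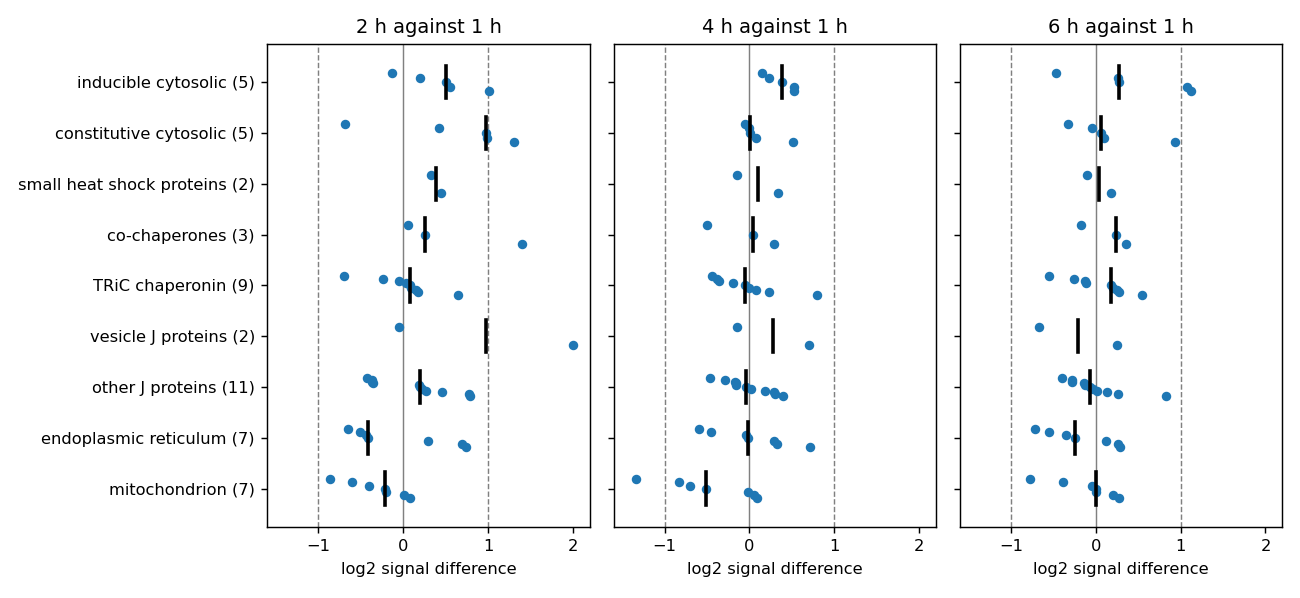
Points are tested genes, with the log2 signal difference from 1 h on the horizontal axis and the classes, with their number of tested genes, down the page. Black bars are class medians and dashed lines mark 2-fold. At 4 h all 5 inducible genes lie right of 0, while 5 of 7 mitochondrial genes lie left of it.

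Hspa1a and Hspa1b, neighbouring genes for the stress-induced cytosolic HSP70 with nearly identical products, were both lowest at 1 h and highest at 6 h. Hspa1a had signals of 425, 854, 554 and 929 at 1, 2, 4 and 6 h. Hspa1b had 295, 417.5, 423.5 and 619. At 6 h Hspa1a was 2.18 times and Hspa1b 2.10 times as high as at 1 h, but after median centring the ratios were 1.98 and 1.91. The 2 h signal of Hspa1a was 2.01 times that of 1 h, or 1.92 times after quantile normalization and 1.84 times after median centring. The steepest upward slope of the 51 genes was that of Hspa1b, 0.18 ± 0.07 log2 per hour (SE over 4 arrays), with limma's unadjusted p = 0.0383 and adjusted p = 0.9996. For Hspa1a the slope was 0.14 ± 0.09, with limma's unadjusted p = 0.162. Whether either probe set also binds the transcript of the other gene was not tested.

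The remaining inducible genes did not share that order. Dnajb1, the J protein that works with inducible HSP70, had 727, 1067, 803 and 526.5, so it was highest at 2 h and lowest at 6 h. Hsp90aa1, the inducible cytosolic HSP90, had 18242, 16583, 26257 and 22138, with its lowest value at 2 h and its highest at 4 h. Hsph1, an HSP110 protein that exchanges the nucleotide of HSP70, was the narrowest of the class with 3847, 4419, 4523 and 4599, a range of 1.20-fold. Both Hsp90aa1 and Hsph1 were bright in these handled controls, with mean signals of 20805 and 4347. Their class rests on known roles, and induction was not tested here. Slopes were -0.13 ± 0.08 log2 per hour for Dnajb1 and 0.09 ± 0.06 for Hsp90aa1 (SE, 4 arrays), with limma's unadjusted p of 0.149 and 0.187. The small heat shock protein gene Hspb1 was too dim to test, at 51.1, 112, 157 and 23.5, the last under the floor. Heat shock factor 2, Hsf2, which binds heat shock elements, was also too dim, at 14.9, 18.8, 42.7 and 51.3, with 2 of the 4 values under the floor of 36.8.

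**Figure D3:**
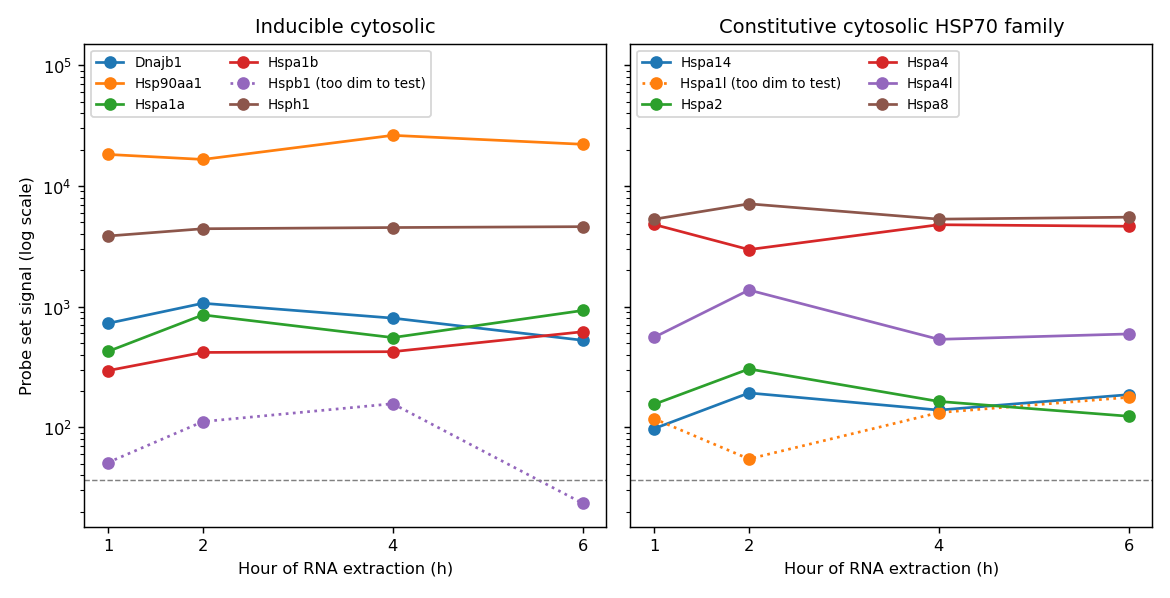
Lines join the probe set signals (log scale) of each gene at 1, 2, 4 and 6 h (horizontal axis, h), with inducible genes on the left and constitutive HSP70 family genes on the right. Dotted lines are genes too dim to test and the dashed grey line is the floor of 36.8. Hspa1a and Hspa1b end highest at 6 h, while Hspa4l and Hspa2 peak at 2 h.

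On their brightest probe sets constitutive HSP70 family genes differed most from 1 h at 2 h, 4 of 5 upward and Hspa4 downward. Hspa8, the HSP70 made at all times and the partner of auxilin in stripping clathrin from vesicles, had 5301, 7108, 5307 and 5510.3. Its 4 and 6 h values lay within 1.04-fold of the 1 h value, and the 2 h value was 1.34 times that of 1 h. After median centring, with its shift of all genes, the 4 h and 6 h values were 0.928 and 0.944 times that of 1 h. Hspa4l, an HSP110 relative, had 556, 1373, 536 and 594, so the 2 h signal was 2.47 times that of 1 h. Hspa2, an HSP70 best known from male germ cells, had 155, 305, 164 and 124. Hspa14, a ribosome-associated HSP70, had 97.5, 193, 139 and 187, with its lowest value at 1 h. Hspa4, a further HSP110 relative, went the other way at 2 h on its brightest probe set, with 4796, 2970.4, 4772 and 4634. Its further tested probe sets gave 394 against 192, 186 against 178 and 125 against 178.5 at 2 h and 1 h, so its direction depended on the probe set. The germ cell gene Hspa1l was too dim to test, at 118, 54.7, 132.5 and 177.

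Among co-chaperones Stip1 stood out. Stip1, the Hop protein that joins HSP70 to HSP90, had signals of 217, 574, 265 and 255, and its 2 h signal was 2.65 times that of 1 h. The 1, 4 and 6 h values of Stip1 lay close together, so the range rested on the 2 h array. Bag1, a nucleotide exchange factor of HSP70, had 810.3, 967, 575 and 1038.5, lowest at 4 h and highest at 6 h. Hspbp1, an inhibitor and exchange factor of HSP70, ranged over 1.17-fold, between 1063 and 1243. Both tested small heat shock proteins stayed within 1.51-fold over the arrays: Hspb8, a partner of Bag3 in clearing misfolded proteins, had 421.5, 575, 381 and 479, and Hspb2, known from muscle, had 345, 432, 437 and 321. Hspb11, named as a small heat shock protein, was too dim to test at 51.9 to 167.

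The widest range of all chaperones was that of Dnajc5, the cysteine string protein of synaptic vesicles, which keeps the SNARE protein Snap25 folded. It had 187, 750.4, 304 and 117 at 1, 2, 4 and 6 h, a range of 6.403-fold, and its 2 h signal was 4.02 times that of 1 h. Dnajc5 was the only tested chaperone past 4-fold over the 4 arrays, against 4.56% of all tested probe sets. It sloped by -0.26 ± 0.18 log2 per hour, with limma's unadjusted p = 0.1997. Of 4 neuron markers, 2 were also above 1 h at 2 h: the vesicle protein gene Syt1, at 3671 against 722, and Nefl, at 910 against 663. Snap25 and Gad1 were not, at 17938 against 18421 and 4263 against 4518. Over all 19 tested tissue markers 9 were above and 10 below 1 h at 2 h, and 2 were at least 2-fold above it, Syt1 and the choroid plexus gene Ttr, at 892 against 222. Kl, also of choroid plexus, was at 177.5 against 309, the microglial C1qa and C1qb were at 1623 against 905 and 828.5 against 617, and the microglial Csf1r was at 1334 against 1724. The part of these markers in the 2 h values was not tested. Dnajc13, a J protein of endosomes, was steady by contrast, with 278, 270, 251.5 and 329.5. Dnajc5, Stip1 and Hspa4l were the 3 genes whose 2 h signal was at least 2-fold above that of each other array (5.88%), against 2.06% of all tested probe sets, and 0 chaperones were at least 2-fold below each other array (1.06% of all). The same held for the neuronal J protein gene Dnajb5, too dim to test, with 147 at 2 h and 26.5, 32.7 and 31.6 at 1, 4 and 6 h, all 3 under the floor.

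Of the other J proteins 7 of 11 tested genes stayed within 1.5-fold on their brightest probe set, against 46.4% of all tested probe sets. Dnaja1, a main cytosolic partner of Hspa8, was the narrowest with 5847, 6804, 6614 and 6385. Widest was Dnajb4, a cytosolic J protein, with 232, 400 and 168 at 1, 2 and 4 h and 279 at 6 h. Dnajb13, known from sperm flagella and cilia, had 207, 355, 273 and 366, and Dnajc21, a factor of ribosome assembly, had 213, 292, 262 and 175. Dnajb2, a J protein enriched in neurons, had 721, 872, 647 and 546.5, sloping by -0.11 ± 0.07 log2 per hour with limma's unadjusted p = 0.146. Of the J proteins too dim to test, Dnajb3 had 43.6 to 150.3, Dnajb8 had 25.1 to 71.6 and Dnajc17 had 38.6 to 139. The remaining 6 tested genes (Dnaja2, Dnajb6, Dnajc2, Dnajc7, Dnajc8 and Dnajc9) stayed within 1.5-fold, but further tested probe sets of Dnajc8, Dnajc2 and Dnajb6 ranged over 1.70-fold, 1.61-fold and 1.51-fold.

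The TRiC chaperonin, a ring of 8 different subunits that folds actin and tubulin, had 0 of 9 tested genes past 2-fold on the brightest probe set, against 22.6% of all tested probe sets. Further tested probe sets passed it, those of Cct3 at 2.01-fold and 2.21-fold and that of Cct5 at 3.88-fold. Subunit gene Cct6a had the narrowest range of the 51 genes, with 1049.8, 1011, 1013 and 963, a range of 1.09-fold. Cct5 had 2913, 2992, 3064 and 3306, and Cct2 had 309, 330.4, 309 and 286. Tcp1, the alpha subunit, had 395, 418, 308 and 475.5. Wider ranges were those of Cct6b, a form of Cct6a known from testis, with 111.5, 124, 194 and 162.5, and of Cct7 with 2592, 2918, 1913 and 1774. Cct7 sloped down by -0.14 ± 0.06 log2 per hour (SE, 4 arrays), with limma's unadjusted p = 0.0421 and adjusted p = 0.9996. On its brightest probe set Cct3 had 1106, 683, 966 and 927. Cct4 had 2097, 1781, 1603 and 2487, and Cct8 had 393, 613, 461 and 451. At 2 h 6 of 9 subunit genes were above 1 h, against 49.7% of all. It was 3 of 9 both after quantile normalization, against 45.7% of all, and after median centring, against 40% of all.

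In the endoplasmic reticulum, on the brightest probe sets, the HSP70 and the HSP90 were above 1 h. On these, 3 of the 5 J proteins were below it at all later hours. A second tested probe set of Dnajb9 gave 264, 219 and 178.5 at 2, 4 and 6 h, against 179 at 1 h. The class median was -0.417 and -0.0139 log2 at 2 and 4 h. With the tested probe sets of a gene averaged it was -0.0429 and 0.284. Hspa5, the HSP70 known as BiP, had 1806, 2919, 2966 and 2168, so it was 1.62 times as high at 2 h and 1.64 times as high at 4 h as at 1 h. Hsp90b1, the HSP90 known as Grp94, had 2449, 2994, 2981 and 2658, likewise higher at 2 and 4 h than at 1 and 6 h, over a range of 1.22-fold. Hspa5 and Hsp90b1, which both carry the ER stress element, were above 1 h at every later hour, but after median centring Hsp90b1 at 6 h was 0.986 times its 1 h value. Dnajc3, the third gene with that element and an inhibitor of eIF2alpha kinases, had 369, 614, 358 and 449 on its brightest probe set. The J proteins below 1 h included Dnajb9, a BiP partner also called ERdj4, with 565.5, 361, 376 and 385, and Dnajc10, a J protein with disulfide reductase activity, with 981, 691, 719 and 827. Dnajb11, a BiP partner also called ERdj3, was below it too with 429, 316, 425 and 335, and Dnajc1, a membrane-bound J protein, had 215, 161, 270.3 and 131.

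Mitochondrial chaperones stood at or below 1 h more often than above it at 2 and 4 h. Hspa9, the HSP70 of the matrix also called mortalin, had 3150.3, 2071, 2211 and 2416, below 1 h at all 3 later hours. Hspd1, the HSP60 chaperonin, had 6167, 5316, 3781 and 6190.4, and its cofactor Hspe1, the HSP10 that caps it, had 2490.1, 1883, 2454 and 2417. Hspd1 and Hspe1 share the promoter shown above, and Hspd1 was lowest at 4 h and Hspe1 at 2 h. Dnajc11, a J protein of the outer mitochondrial membrane, had 330.3, 181, 131 and 193, so its 4 h signal was 0.396 times that of 1 h. Dnajc4, a J protein assigned to mitochondria, had 242, 256, 136 and 291, and Dnaja3, the matrix J protein also called Tid1, was the narrowest with 1285, 1293, 1364 and 1481. Dnajc15, a J protein of the inner membrane, stayed between 363 and 431.

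Second probe sets often did not repeat the direction of the brightest one. For 9 tested genes 13 further probe sets were bright enough to compare. They had the same sign as the brightest in 5 of 13 cases at 2 h, 3 of 13 at 4 h and 5 of 13 at 6 h, and 5, 3 and 0 of them lay over 2-fold away. The 13 cases are not independent, since Hspa4, Cct3 and Dnajc3 gave several each. The like share over all genes with several probe sets was not computed, so no trait of chaperones can be read from these counts. Cct3 gave 683 against 1106 at 2 h and 1 h on its brightest probe set, but 1025.5 against 509 and 1113 against 505 on the other two. Hspa4 gave 2970.4 against 4796 on its brightest, 394 against 192, 186 against 178 and 125 against 178.5 on its further tested ones. Cct5, level on its brightest probe set, gave 91.7 against 356 on the dimmer one.

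Genes of the endoplasmic reticulum and the mitochondrion were split in the same way. Dnajb9 gave 361 against 565.5 at 2 h and 1 h on the brightest and 264 against 179 on the second. Dnajc3 gave 358 against 369 at 4 h and 1 h on the brightest, but 626 against 312 and 520 against 191 on further probe sets, so the sign of its 4 h difference depended on the probe set used. The low 4 h value of Hspd1, 3781 against 6167 at 1 h, was not repeated on its dimmer probe set, with 337 against 230. Of the 9 genes, Dnajc8, a splicing-associated J protein, kept its sign at all 3 hours, being below 1 h on both probe sets. The genes that were at least 2-fold from 1 h at any hour (Dnajc5, Stip1, Hspa4l, Hspa1a, Hspa1b and Dnajc11) each had 1 probe set and could not be checked in this way.

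**Figure D4:**
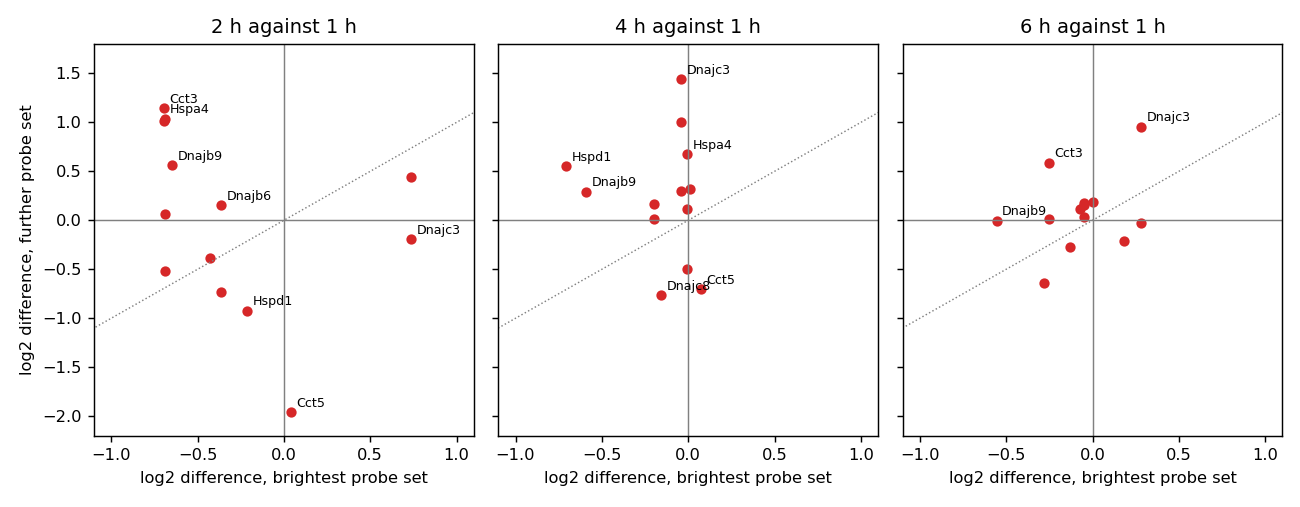
Each point is a further tested probe set of a chaperone gene, with the log2 signal difference from 1 h on the gene's brightest probe set across and on the further one up. The dotted line marks equal differences, and points at least 0.5 log2 apart are labelled once per gene. Points lie on opposite sides of 0 on the 2 axes in 8, 10 and 8 of 13 cases at 2, 4 and 6 h.

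Bright genes varied less than dim ones. Among the 26 brighter tested chaperones, with a mean signal of at least 691, 13 varied by at most 1.5-fold (50%) and 3 by at least 2-fold (11.5%), while 66.9% and 7.89% of all tested probe sets as bright did so. Among the 25 dimmer ones 8 stayed within 1.5-fold (32%) and 8 varied by at least 2-fold (32%), against 34.4% and 31.3% of all dimmer probe sets.

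Of 51 further genes of protein folding and its stress responses, 40 were measured and 36 were bright enough to test. Limma called 0 of them upward and 0 downward, with 0 at an unadjusted p under 0.05 (0% and 2.71% of all probe sets). Their range was within 1.5-fold in 14 genes (38.9%), against 46.4% of all, and at least 2-fold in 7 (19.4%), against 22.6%, and 12 were highest at 2 h (33.3%), against 29.2%. The median differences were 0.12, 0.07 and -0.07 at 2, 4 and 6 h. The widest ranges were those of Cryaa, a lens small heat shock protein (254, 79.4, 389 and 110.2), Ddit3, the stress transcription factor CHOP (325, 371, 80.6 and 310.1), Serpinh1, the collagen chaperone (50.3, 202, 109 and 167), and Creld2, an ER stress-induced factor (206, 362, 317 and 153). Cdc37, which brings kinases to HSP90, was high on the 2 h array, at 1854 against 783 at 1 h, with 849 and 996 at 4 and 6 h. Other co-chaperones lay on both sides of 1 h at 2 h. Below it were Fkbp4 at 2620 against 2672, Stub1 at 2308 against 2350, Ppid at 1195 against 1851 and Bag3 at 125 against 203.5. Above it were Bag6 at 834 against 504, St13 at 329.5 against 271 and Bag2 at 1388 against 1202.5. Xbp1 and Atf4, transcription factors of the unfolded protein response, had 708, 1175, 1045 and 670.3, and 1774, 3022, 2302 and 1973, each highest at 2 h. Herpud1, Creld2, Ddit3 and Serpinh1 were also highest at 2 h. Further genes of the endoplasmic reticulum and its stress response were highest at other hours. These were Pdia3, Pdia6 and Manf at 4 h, Pdia4 and P4hb at 6 h and Canx and Atf6 at 1 h.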

How the data were processed

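The authors deposited a linear intensity for each probe set on each array, made with software the sources used here do not give. As the values show, the authors scaled the arrays: means without the lowest and highest 2% differed by 0.0752%. Values were used as deposited, floored at the pooled 20th percentile (36.8) and put on the log2 scale. Of 12488 probe sets 66 were controls. The 7237 with mean log2 at or above the pooled 40th percentile (116.4) were tested with limma 3.58.1 in R 4.3.3 (slope over the hours, 2 residual degrees of freedom, mean-dependent prior, two-sided, Benjamini-Hochberg at 0.05). Hours were set against 1 h by fold, with no test. Symbols came from the platform annotation: 10833 probe sets had 1 symbol, 396 several and 1193 none. All 82 chaperone probe sets kept their symbol after an update through gene IDs. Of the 51 tested genes, 6 are read on a probe set whose name marks shared or incomplete probes. Genes with values in every sample were all tested inducible genes, fixed main chaperones, the 3 widest and 1 narrowest of each class and the 3 smallest slope p each way; Hspb1, Hspa1l, Dnajb5, Cdc37, Xbp1, Atf4 and further members, pathway genes and markers were added after their values were seen. Hsf1 and Hsp90ab1 were not analysed here. The members, classes and lists were chosen with earlier results of these data known. Alternatives covered normalization, floor, filter, probe sets, fold, time scale, prior and leaving out arrays. On simulated data for the slope over 7237 probe sets, limma found 6.5%, 44.5% and 85.5% of slopes of 0.2, 0.4 and 0.8 log2 per hour and called 0.136% of unchanged probe sets. The simulated slopes were all upward, in 200 probe sets for each size, with independent noise and no departure of a whole array. These rates may therefore be higher than on the real arrays. The number of arrays limits the precision. No label says which samples come from separate animals, so p-values measure only the spread between these samples, which may be technical. Python 3.11.15 and pandas 2.3.3 were used.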

Additional observations from a re-analysis of the deposited data

Results flagged for a closer look

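Over the 4 control arrays, 5 of 51 tested chaperone genes (9.8%) had 1 array far from the other 3 by Dixon's ratio, against 6.44% of all tested probe sets; chance flags about 1 in 20. The 2 h array was the one apart in 4 of them: Hspa4l at 1373 against 556, 536 and 594 on the 1, 4 and 6 h arrays, Hspa8 at 7108 against 5301, 5307 and 5510.3, Hspa4 at 2970 against 4796, 4772 and 4634, and Hspe1 at 1883 against 2490.1, 2454 and 2417. In Dnajb9 the 1 h array was apart, at 565.5 against 361, 376 and 385. These values are from the brightest probe sets. At 2 h against 1 h, further tested probe sets of Hspa4 gave 394 against 192, 186 against 178 and 125 against 178.5. That of Dnajb9 gave 264 against 179. The 3′ over 5′ ratio of Gapdh was also apart at 2 h, at 1.082 against 4.10, 3.62 and 3.95, while that of beta-actin was not flagged. The part of the Gapdh difference in the chaperone values was not tested. Since each hour has 1 array, the hour and the array cannot be told apart.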

How the results depend on the processing

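No paired analysis was possible because each hour has 1 sample. Of 316 values recomputed under 15 alternatives, 278 kept their direction and stayed within 1.5 times the count or within 0.277 log2, the typical SD of a gene over the arrays; 17 moved and 21 turned, and the causes were not tested. Median centring shifted the median of all genes to -0.14, -0.10 and -0.12 log2 at 2, 4 and 6 h. Under it the median differences from 1 h were -0.0422 for TRiC at 2 h, -0.107 and -0.0829 for constitutive genes at 4 and 6 h, -0.0113 and -0.0994 for small heat shock proteins at 4 and 6 h, -0.0699 for co-chaperones at 4 h, and -0.133 at 6 h both for mitochondrial genes and for all 51 genes, and 0 genes were at least 2-fold from 1 h at 6 h. Quantile normalization gave -0.00652 for TRiC at 2 h, and -0.0172 and -0.0105 for mitochondrial genes and small heat shock proteins at 6 h. A filter at the 50th percentile gave 0.423 and -0.00709 for constitutive genes at 2 and 4 h. With no filter, 8 and 5 genes were at least 2-fold from 1 h at 2 and 4 h, 17 ranged over at least 2-fold, and small heat shock proteins had -0.145 and -0.106 at 4 and 6 h. Averaging the probe sets of a gene gave -0.0429 and 0.284 for the endoplasmic reticulum at 2 and 4 h, and at 4 h 0.0389 for all genes, -0.0763 for mitochondrial genes and 0.129 for other J proteins. Without probe sets marked as shared or incomplete, co-chaperones had 0.83 and -0.103 at 2 and 4 h, other J proteins 0.0953 and small heat shock proteins -0.145 at 4 h, and mitochondrial genes -0.0187 at 6 h. At 1.5-fold, 16, 7 and 7 genes were past the fold at 2, 4 and 6 h, and 30 over the range. Leaving out each array in turn gave 6 to 8 genes ranging over at least 2-fold, with 6 without the 2 h or the 6 h array, 7 without 4 h and 8 without 1 h, and 27 to 34 within 1.5-fold, with 34 without 2 h. Limma's slope then called 0 to 32 probe sets, with 32 and 420 at an unadjusted p under 0.05 without the 2 h array, and 0 of the chaperone genes under any alternative.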
